A study of Mus musculus with 12 samples.

Results

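RNA sequencing of B16F10 cells, a pigmented mouse melanoma line, was done on 3 culture repeats of 4 treatments. The 4 libraries whose titles end in the second repeat number were set against the 8 libraries of repeats 1 and 3, so 4 of 12 libraries were chosen by their labels and no measured value was used. Each repeat held 1 library of DMSO control, 1 of DAC (25 nM for 72 h), 1 of SFN (48 h) and 1 of DAC+SFN (25 nM for 72 h with 5 µM for the last 48 h). The labels give the SFN single treatment as 5 nM where the methods give 5 µM. DAC, 5-aza-2′-deoxycytidine, inhibits DNA methylation, and SFN, sulforaphane, is an isothiocyanate of cruciferous vegetables. All 12 libraries came from the same line, and the labels name no genetic change in any of them. Repeat 2 is 1 culture repeat, so the p-values below measure how evenly a difference held over its 4 treatments and not how often another repeat would show it. The library numbers in the labels ran from 5 to 8 in repeat 2, from 1 to 4 in repeat 1 and from 11 to 14 in repeat 3, so a difference between cultures and one between library preparations in that order cannot be told apart.

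Total gene counts ranged from 15880957 to 27291436 per library, with the lowest and the highest both in repeat 2. Between 14162 and 14986 genes had a count, and the 10 most abundant genes took 6.03% to 7% of each library. Pigment cell genes marked all 12 libraries as melanocytic. The 20 genes of melanocyte identity summed to 33600 to 37700 CPM, the library-scaled count, in repeat 2 and 32900 to 41400 CPM in the others. T and NK cell markers summed to at most 0.337 CPM and erythroid markers to at most 0.126 CPM. Macrophage markers summed to 6.09 to 16.7 CPM in repeat 2 and 5.25 to 12.8 CPM in the others. In bulk RNA, fewer cells of a kind and less RNA per cell cannot be told apart.

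A tumor line in a dish carries several programs that follow the state of the culture. Interferon-stimulated genes encode antiviral sensors and effectors, and they are switched on when interferon signals from its receptor to the nucleus. Hypoxia-inducible factor (HIF) is destroyed when oxygen is plentiful, and when it is stable it raises genes for glycolysis, iron and pH balance and mitophagy. Sterol synthesis is driven by SREBP2, which the endoplasmic reticulum protein INSIG1 holds back when cholesterol is high.

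The promoters of genes from the first 2 programs show the letters that these factors are known to read. The set printed is the 2 members of each list with the lowest adjusted p whose RefSeq window held the letters, 250 bases before to 50 bases after the start in GRCm38.p6. Capitals mark TTTC-any 2 bases-TTTC, the interferon-stimulated response element written loosely, or ACGTG, the core of the hypoxia response element, on either strand. Irgm2, an interferon-induced GTPase that guards vacuoles, lies on the plus strand with the window at chr11:58214727-58215026. The letters begin 64 bases before its start. Ddx58 encodes RIG-I, a sensor of viral RNA, and its window is at chr4:40239776-40240075 on the minus strand with the letters just after the start. Mgarp, a mitochondrial protein that hypoxia induces, has its window at chr3:51396498-51396797 on the minus strand. Egln3, a prolyl hydroxylase that marks HIF for destruction and is itself a HIF target, has its window at chr12:54203825-54204124 on the minus strand.

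Irgm2: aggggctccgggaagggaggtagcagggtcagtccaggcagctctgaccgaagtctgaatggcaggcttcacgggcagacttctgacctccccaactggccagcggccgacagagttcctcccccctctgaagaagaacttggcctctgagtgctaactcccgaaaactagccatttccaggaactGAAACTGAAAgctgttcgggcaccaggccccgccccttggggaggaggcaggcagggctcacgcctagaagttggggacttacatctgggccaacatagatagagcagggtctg

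Ddx58: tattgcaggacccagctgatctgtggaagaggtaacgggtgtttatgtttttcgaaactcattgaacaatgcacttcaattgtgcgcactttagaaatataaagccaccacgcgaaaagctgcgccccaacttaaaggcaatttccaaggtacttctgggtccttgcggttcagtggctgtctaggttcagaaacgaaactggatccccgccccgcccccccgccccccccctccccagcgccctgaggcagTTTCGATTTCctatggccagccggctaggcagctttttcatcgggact

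Mgarp: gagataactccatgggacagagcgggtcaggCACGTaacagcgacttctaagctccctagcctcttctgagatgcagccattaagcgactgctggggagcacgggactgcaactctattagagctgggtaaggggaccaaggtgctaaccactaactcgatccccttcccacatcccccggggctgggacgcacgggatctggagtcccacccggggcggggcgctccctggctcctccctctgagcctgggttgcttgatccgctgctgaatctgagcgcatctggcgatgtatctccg

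Egln3: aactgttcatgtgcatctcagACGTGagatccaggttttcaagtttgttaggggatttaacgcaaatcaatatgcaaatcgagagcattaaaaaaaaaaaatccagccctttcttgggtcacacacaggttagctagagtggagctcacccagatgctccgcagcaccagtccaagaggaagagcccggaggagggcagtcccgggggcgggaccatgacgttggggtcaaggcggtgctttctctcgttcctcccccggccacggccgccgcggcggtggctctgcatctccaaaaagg

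Windows were found for 29 of the 38 interferon-stimulated genes tested, and 16 of them (55.2%) held TTTC-any 2 bases-TTTC, beside 3.48% of the 9363 tested genes with a window. ACGTG stood in the windows of 18 of 24 HIF targets (75.0%), beside 30.1% of tested genes. A match describes the letters only.

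Repeat 2 differed from the mean of repeats 1 and 3 in the same direction within all 4 treatments for 5641 of 11638 genes tested (48.5%). With treatment as a block in edgeR's quasi-likelihood test, 3776 genes passed an adjusted p under 0.05 (32.4%), of which 1962 were higher (16.9%) and 1814 lower (15.6%). Most of these differences were small. A fold change above 2 was also met by 199 genes (1.71%), 44 higher (0.378%) and 155 lower (1.33%), and these are the genes called below. The levels of the 4 libraries did not overlap with those of the other 8 for 846 genes (7.27%). Of the 199, 49 were members of a gene list described here, 47 of them lower and 2 higher. The share of all tested genes that lie in a list was not worked out.

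The other repeats differed from each other as well, and repeat 2 was not the only one set apart. Against repeat 1 alone, 184 genes were called (1.58%), and against repeat 3 alone 249 (2.14%). Repeat 3 against repeat 1 gave 113 (0.971%), all 113 of them higher in repeat 3. These contrasts share libraries, so their counts are given side by side only. Within a treatment, the root mean square difference in log2 CPM was 0.327 to 0.389 between repeats 1 and 2, 0.366 to 0.451 between repeats 2 and 3, and 0.285 to 0.321 between repeats 1 and 3. In 114 genes (0.98%), 25 higher (0.215%) and 89 lower (0.765%), repeat 2 was called in the same direction against each of the others.

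**Figure D1:**
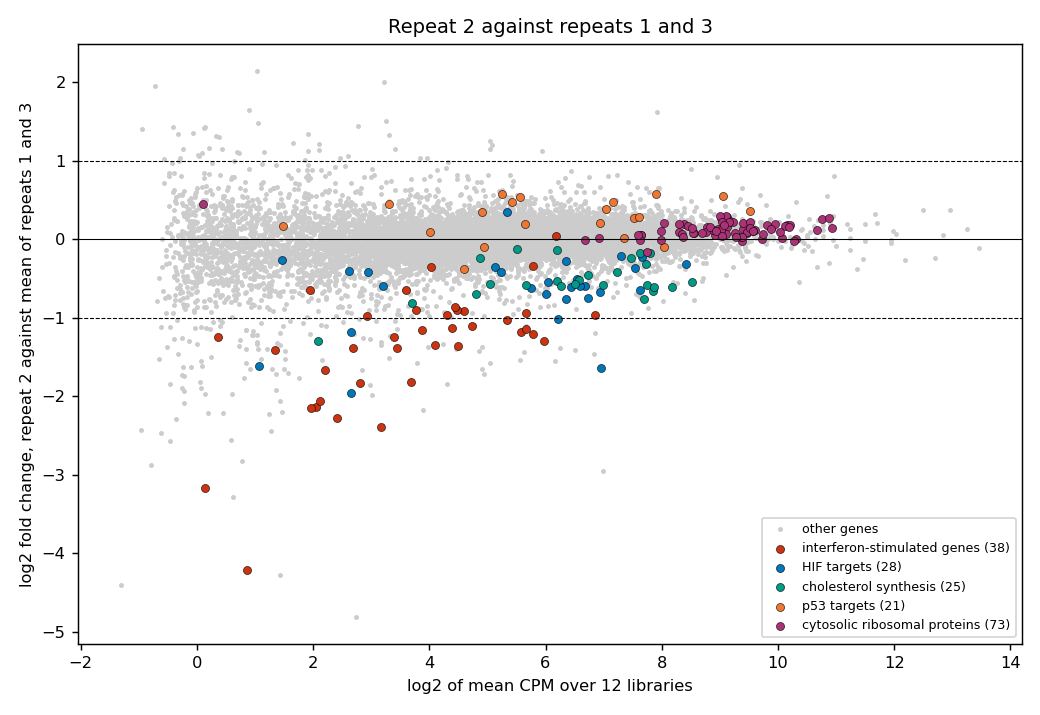
Log2 fold change of repeat 2 against the mean of repeats 1 and 3 (vertical axis) by the log2 of mean CPM over 12 libraries (horizontal axis), 1 point per gene, with 5 gene lists in color and dashed lines at a fold change of 2. Of the 38 interferon-stimulated genes 25 lie below the lower dashed line as called genes, while the 73 ribosomal protein genes sit close above 0 with a median of 0.12.

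Interferon-stimulated genes had the lowest median of all lists. Of 38 tested members, 35 fell (background 15.6%) and none rose in repeat 2, and 25 fell by more than 2-fold (background 1.33%). Their median log2 fold change was -1.19, where all genes tested had 0.003. In 21 of the 38, every repeat 2 library was below all 8 others, where 3.82% of all genes were. The list's median difference came to -1.39 for control, -1.61 for DAC, -0.82 for SFN and -0.91 for DAC+SFN.

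The factors that carry the interferon signal fell with their targets. Irf7, which amplifies interferon production, stood at 0.731, 1.60, 0.640 and 1.44 CPM in control, DAC, SFN and DAC+SFN of repeat 2, and at 2.02 to 16.6 CPM (median 3.86) in the other libraries. The groups did not overlap, and Irf7 fell by 2.14 ± 0.23 (log2, SE; adjusted p = 1.32e-05). Irf9, the DNA-binding part of the signaling complex, fell by 1.36 ± 0.13. Stat2, its partner in that complex, fell by 0.90 ± 0.10, short of 2-fold.

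Among the effectors, Rtp4, an interferon-induced chaperone of receptors, was at 1.25, 2.04, 1.32 and 3.35 CPM in repeat 2 and at 4.14 to 32.0 CPM (median 8.38) elsewhere. It fell by 2.39 ± 0.21 (adjusted p = 1.97e-06). Rtp4 lies over part of Masp1 in RefSeq, and the counting's strand setting is not given in the sources used here. Irgm2 was at 3.05, 3.89, 3.12 and 7.23 CPM against 6.35 to 34.8 (median 13.2), with 1 overlapping library, and fell by 1.82 ± 0.16 (adjusted p = 2.32e-06). Ddx58 was at 22.2, 30.2, 22.5 and 37.1 CPM against 39.1 to 125 (median 66.7). It fell by 1.2 ± 0.11 (adjusted p = 3.74e-06), with all 4 libraries below the others. Parp9 and Dtx3l, a divergent pair whose products act together in DNA repair and interferon signaling, fell by 1.10 ± 0.10 and 1.13 ± 0.10. Parp9 and Dtx3l share 558 bases, so without the strand setting the split of reads between them is uncertain.

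Oas2, an enzyme that activates RNase L on sensing double-stranded RNA, had the largest difference of the list, on few counts in repeat 2. Repeat 2 held 1 to 3 counts of Oas2 per library, at 0.086, 0.191, 0.0376 and 0.144 CPM. The other libraries held 1.04 to 8.80 CPM (median 1.54). The ratio of summed counts was 0.0373 (95% exact interval 0.017 to 0.0714, counting error only). Ifi44, an interferon-induced cytoplasmic protein, had 2 to 4 counts per repeat 2 library and a ratio of 0.0845 (0.0432 to 0.15). The list was graded over the repeats and not only low in repeat 2: its median was -0.90 against repeat 1 and -1.52 against repeat 3, and 27 of 38 members were higher in repeat 3 than in repeat 1 by adjusted p (background 3.77%). Of the 38, 12 were called lower against each of the other repeats (background 0.765%).

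Genes of MHC class I presentation, several of which interferon also raises, gave a mixed result. Of 11 tested, 7 fell (background 15.6%) and 1 rose (16.9%), with a median of -0.32. H2-K1, a classical class I heavy chain, was at 14.1, 14.5, 8.88 and 13 CPM in repeat 2 and at 14.1 to 59.2 CPM (median 36.0) in the others. It fell by 1.43 ± 0.19 (adjusted p = 8.86e-05). The 4 libraries overlapped with the lowest of the others. H2 genes are near-identical copies, and the authors discarded reads that mapped to several places. Tapbp, which helps load peptides, fell by 0.72 ± 0.08. Tap1 and Psmb10 did not pass, at -0.07 and 0.05.

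**Figure D2:**
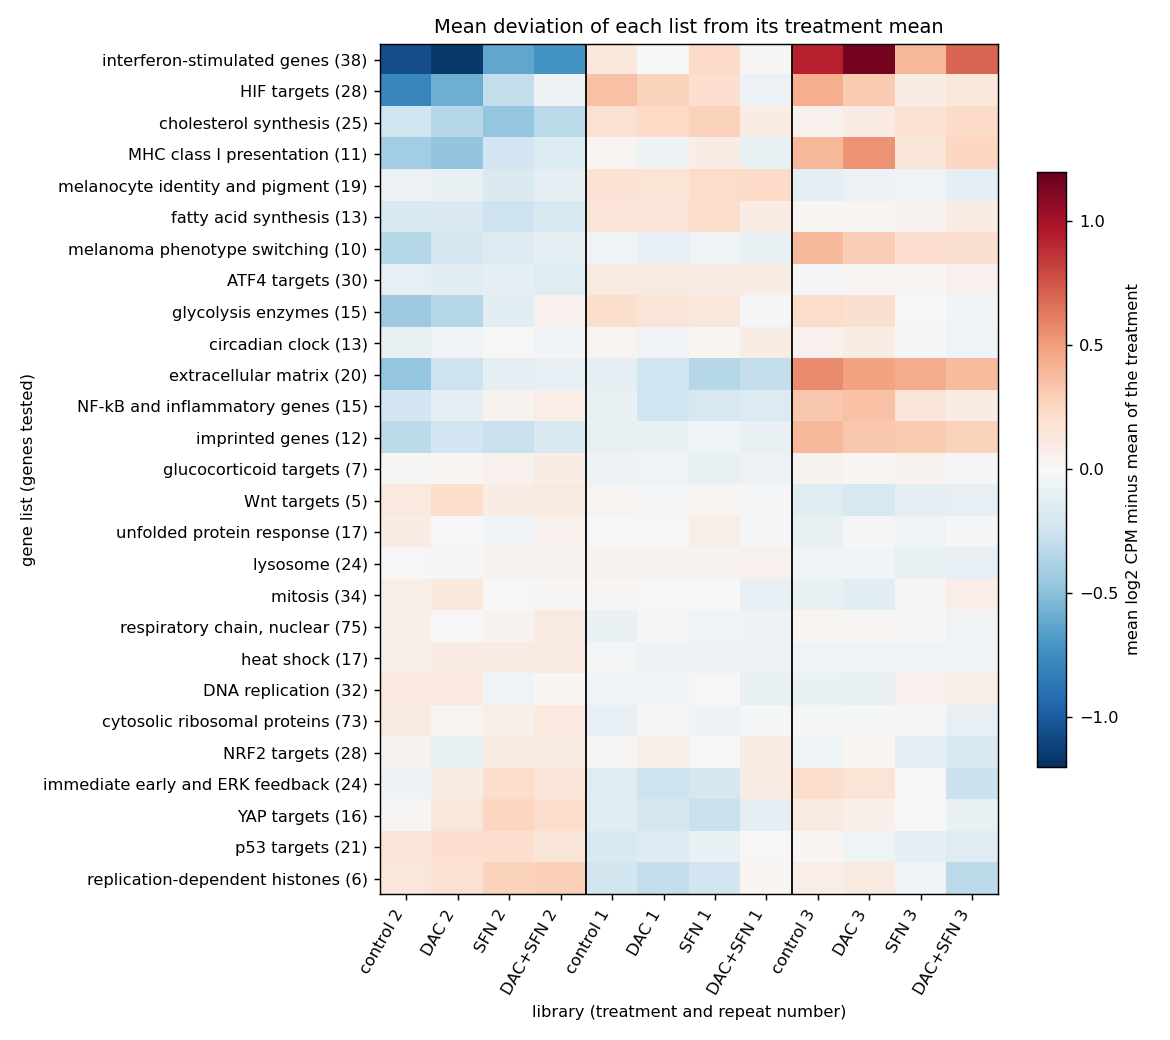
Mean over each gene list (vertical axis, genes tested in parentheses) of log2 CPM minus the mean of the library's treatment, for 12 libraries (horizontal axis) in the order repeat 2, repeat 1, repeat 3. Interferon-stimulated genes run from -1.16 in the DAC library of repeat 2 to 1.15 in that of repeat 3, and HIF targets from -0.78 in the control library of repeat 2 to 0.43 in that of repeat 3.

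HIF targets were lower too, and their difference was smaller where SFN was present. Of 28 tested members, 22 fell (background 15.6%), 1 rose (16.9%) and 5 fell by more than 2-fold (1.33%) in repeat 2, with a median of -0.59. The median came to -1.07 for control, -0.78 for DAC, -0.39 for SFN and -0.12 for DAC+SFN. In control 27 of 28 were lower, beside 5776 of all 11638 genes, and with DAC+SFN 19 of 28, beside 5662. Without the repeat 2 control library 3 members fell by more than 2-fold. Between repeats 3 and 1 the median was 0.05 and no member passed in edgeR, with 1 at an unadjusted p under 0.05.

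Mgarp stood at 2.24, 2.62, 1.69 and 1.48 CPM in control, DAC, SFN and DAC+SFN of repeat 2. It was at 11.4, 12.2, 5.32 and 2.50 CPM in repeat 1 and at 14.3, 12.4, 5.36 and 3.92 CPM in repeat 3. The gap was thus widest in control, and Mgarp fell by 1.96 ± 0.18 (adjusted p = 4.01e-06). Egln3 was at 2.93, 3.96, 2.78 and 3.93 CPM against 5.01 to 12.1 (median 7.51), below all others, and fell by 1.18 ± 0.16. Ankrd37, a small ankyrin protein and sensitive HIF target, fell by 1.61 ± 0.31 at levels under 5 CPM.

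Bnip3, which sends mitochondria to autophagy, showed the pattern in full. In repeat 2 it was at 30.5, 40, 48.3 and 58.3 CPM in control, DAC, SFN and DAC+SFN. In repeat 1 it was at 248, 199, 130 and 44.6 CPM, and in repeat 3 at 272, 210, 115 and 90.7 CPM. It was therefore low in the repeat 2 control and highest with DAC+SFN there, while the order was the opposite in the other repeats. Averaged over treatments Bnip3 fell by 1.64 ± 0.33 (adjusted p = 0.00182). Slc16a3, the lactate exporter MCT4, was at 22.8, 28.3, 25.6 and 35.5 CPM against 34.2 to 140 (median 96.3) and fell by 1.55 ± 0.26 (adjusted p = 0.000505). Slc16a3 shares 1292 bases of its span with Csnk1d. Slc16a3 belongs to the glycolysis list. Other HIF targets were lower by less: Vegfa, the angiogenic growth factor, by 0.61 ± 0.12, Egln1, the main oxygen-sensing hydroxylase, by 0.74 ± 0.13, and Pdk1, which keeps pyruvate out of mitochondria, by 1.01 ± 0.18 on the log2 scale. Pfkfb3, a glycolytic regulator, rose by 0.34 ± 0.05.

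The glycolysis enzymes moved less than the HIF list. Of 15 tested, 8 fell (background 15.6%) and 2 rose (16.9%), with a median of -0.14, and 3 fell without the repeat 2 control or DAC library. The direction turned with treatment: the median was -0.41 in control, with 15 of 15 below 0, and 0.12 with DAC+SFN, with 2 of 15 below 0. In the 6 libraries with SFN 3 rose and 2 fell, and in the 6 without SFN 13 fell. Slc16a3 and Aldoc fell by more than 2-fold. Aldoc, the aldolase of brain that hypoxia also raises, was at 26.5, 17.8, 16.8 and 18.8 CPM against 37.2 to 88.5 (median 58.9) and fell by 1.54 ± 0.12 (adjusted p = 8.8e-07). Gapdh and Pkm, the abundant enzymes of the lower pathway, did not pass, at -0.01 and -0.04. Eno2 rose by 0.41 ± 0.10, and it did not pass in the libraries without SFN alone.

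Whether the repeat 2 difference depended on SFN was tested as an interaction in the same 12 libraries. In edgeR 61 genes passed (0.524%), 57 of them with a more positive repeat 2 difference under SFN (0.49%), and 10 of those by more than 2-fold (0.0859%). At an unadjusted p under 0.05 there were 1334 (11.5%). DESeq2 gave 103 by adjusted p, and edgeR gave 176 with no filter on low counts. HIF targets made up 17 of the 61, and glycolysis enzymes 7. The median interaction of HIF targets was 0.75, where all genes had 0.001. Bnip3 had an interaction of 1.95 (adjusted p = 0.00555), Pdk1 of 1.13 and Vegfa of 0.75. Pfkl, a phosphofructokinase, had the lowest adjusted p (0.000817) with 0.98. It stood at 179, 202, 263 and 274 CPM in repeat 2, at 407, 389, 342 and 259 CPM in repeat 1 and at 410, 390, 293 and 258 CPM in repeat 3. Ero1l, an oxidase of the endoplasmic reticulum, P4ha1, a collagen prolyl hydroxylase, and Hk2, a hexokinase, had interactions of 1.09, 0.73 and 0.77. The symbol Hk2 stands beside an identifier of another gene in the deposited files, which leaves its value uncertain. The test drew on 4 residual degrees of freedom: without any 1 of the 4 repeat 2 libraries (control, DAC, SFN or DAC+SFN) no gene passed, with 659, 753, 662 and 754 genes at an unadjusted p under 0.05, while the HIF median stayed between 0.74 and 0.75. Without 1 of the other libraries 24 to 239 genes passed.

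Slc7a11, the cystine importer, passed the interaction too (0.81, adjusted p = 0.000937) without a repeat 2 difference on average. It was at 79.6, 89.6, 244 and 258 CPM in repeat 2, at 103, 135, 176 and 235 CPM in repeat 1 and at 87.5, 112, 145 and 186 CPM in repeat 3. The averaged difference was 0.09 ± 0.12. An interaction with DAC was found for no gene in edgeR at an adjusted p under 0.05, with 221 at an unadjusted p under 0.05 (1.9%), and for none with DESeq2.

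**Figure D3:**
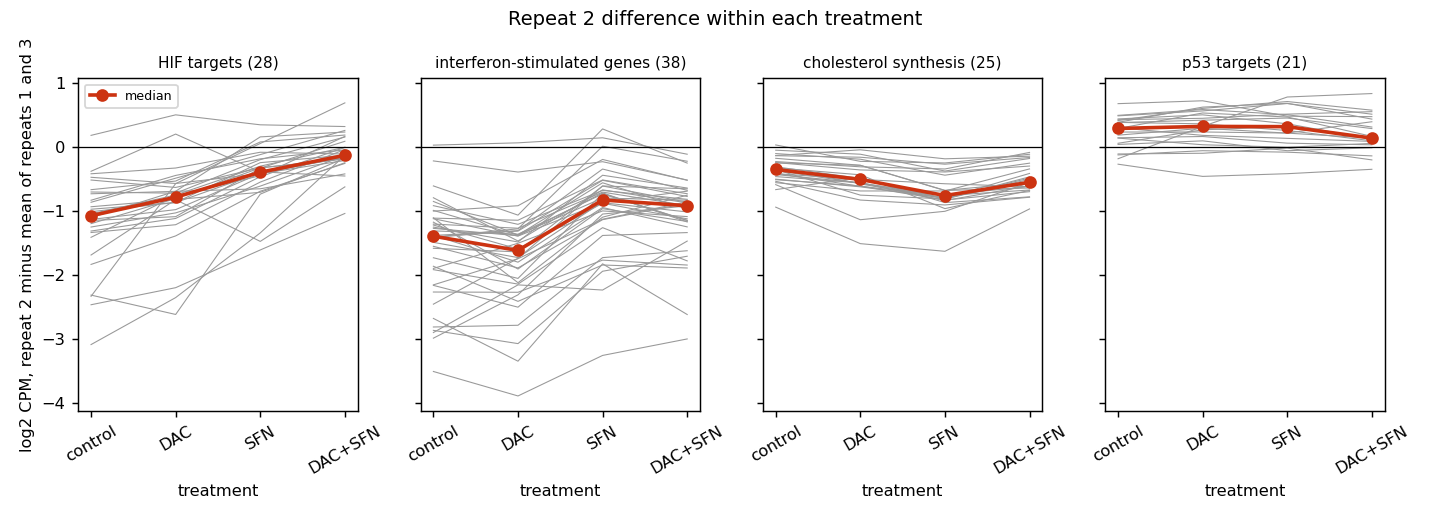
Log2 CPM of repeat 2 minus the mean of repeats 1 and 3 (vertical axis) within each treatment (horizontal axis), with 1 gray line per gene and the list median in red, for 4 gene lists. The HIF median climbs from -1.07 in control to -0.12 with DAC+SFN, while the cholesterol median stays between -0.35 and -0.76.

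Genes of cholesterol synthesis were lower in repeat 2, with a median close to that of the HIF targets. Of 25 tested members, 23 fell and none rose, and 24 were lower in all 4 treatments (background 23.5%). The median was -0.57, and by treatment it came to -0.35 for control, -0.50 for DAC, -0.76 for SFN and -0.55 for DAC+SFN. Between repeats 3 and 1 none passed in edgeR, with 3 at an unadjusted p under 0.05. The 25 genes summed to 3530, 3030, 1950 and 2020 CPM in control, DAC, SFN and DAC+SFN of repeat 2, to 4740, 4540, 3210 and 2680 CPM in repeat 1, and to 4310, 4100, 3060 and 3060 CPM in repeat 3. Within each treatment the repeat 2 library was the lowest of the 3.

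Hmgcs1, which makes HMG-CoA for the pathway, was at 232, 199, 119 and 122 CPM in repeat 2 and at 175 to 343 CPM (median 251) in the others, which overlap across drugs. With treatment as a block it fell by 0.66 ± 0.07 (adjusted p = 8.9e-06). Insig1 was at 208, 164, 101 and 100 CPM against 161 to 312 (median 234) and fell by 0.76 ± 0.06 (adjusted p = 1.14e-06). Sqle and Lss, which form the first sterol ring from squalene, fell by 0.58 ± 0.06 and 0.59 ± 0.06. Srebf2, which encodes SREBP2, fell by 0.18 ± 0.05 (adjusted p = 0.0097), a difference of -0.15 that did not pass without the repeat 2 SFN library.

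Fatty acid synthesis, which the related factor SREBP1 drives, was split. Of 13 genes 8 fell (background 15.6%) and none rose (16.9%), with a median of -0.17. The desaturases Scd1, Scd2 and Fads1 fell by 0.57 ± 0.05, 0.38 ± 0.05 and 0.35 ± 0.05. Fasn, which builds the chain, did not pass, at 0.01.

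Col1a1, Spp1, Thbs1 and H19 were lowest in repeat 2 and highest in repeat 3. By summed CPM the imprinted list followed that order within each treatment, and the matrix list did not. Col1a1, the main chain of type I collagen, was at 15.6, 18.1, 16.7 and 24.1 CPM in repeat 2, at 72.1, 63.5, 61.5 and 90.3 CPM in repeat 1 and at 312, 356, 245 and 246 CPM in repeat 3. The 3 repeats did not overlap, and Col1a1 fell by 2.95 ± 0.13 (adjusted p = 5.1e-09) while repeat 3 exceeded repeat 1 by 2.02. Fibroblast markers, Col1a1 among them, summed to 31.4 to 43.2 CPM in repeat 2 and 77.2 to 395 CPM in the others. Of the 4 tested, only Col1a1 passed the test in edgeR, and the part of other cells in this difference was not tested. The symbol Col1a2, another of these markers, stands beside an identifier of another gene in the deposited files, so its counts are uncertain. Spp1, or osteopontin, and Thbs1, or thrombospondin, fell by 1.58 ± 0.12 and 1.46 ± 0.12 with the same order of repeats. Sparc, another matrix protein, went the other way and rose by 0.81 ± 0.07. Over 20 matrix genes, 7 fell (background 15.6%) and 3 rose (16.9%), and the median was 0.09 against repeat 1 and -0.36 against repeat 3. All 27 listed matrix genes summed to 2520, 3270, 4570 and 4860 CPM in control, DAC, SFN and DAC+SFN of repeat 2, above the 2040, 2220, 2640 and 3320 CPM of repeat 1. Sparc alone held 1650, 2360, 3550 and 3790 CPM of these repeat 2 sums. The list's mean log2 deviation from the treatment mean was -0.461, -0.251, -0.109 and -0.097 in repeat 2. In repeat 1 it was -0.109, -0.235, -0.34 and -0.282, so repeat 2 was lower in control and DAC only.

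H19, an imprinted long non-coding RNA that most adult cells keep silent, had 0 to 5 counts per repeat 2 library. It was at 1.70, 1.49, 0.612 and 0.228 CPM in repeat 1 and at 10.7, 8.95, 4.29 and 3.92 CPM in repeat 3. The ratio of summed counts of repeat 2 to the others was 0.0317 (95% exact interval 0.0157 to 0.057). Of 12 imprinted genes tested, 3 fell (background 15.6%) and 1 rose (16.9%), with a median of -0.04. The 28 listed imprinted genes summed to 2280, 2410, 2340 and 2420 CPM in control, DAC, SFN and DAC+SFN of repeat 2. They summed to 2450, 2480, 2410 and 2640 CPM in repeat 1 and to 2470, 2620, 2480 and 2670 CPM in repeat 3. The list thus had the order of H19, by far smaller differences. Aqp1, a water channel, was at 0.602, 0.957, 0.564 and 0.862 CPM against 1.55 to 5.65 (median 3.71) and fell by 2.21 ± 0.21 (adjusted p = 4.65e-06).

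The lowest fitted log2 fold change, -4.81 ± 0.31, was that of Kcnj13, an inward rectifier potassium channel at chr1:87384577-87394729. It was at 0.344, 0.766, 0.188 and 0.144 CPM in repeat 2 and at 4.37 to 18.1 CPM (median 8.94) in the others, with no overlap. It had 28 counts in all of repeat 2 and a ratio of summed counts of 0.0326 (95% exact interval 0.0216 to 0.0473). Kcnj13 lies wholly within the span of Gigyf2, 10153 bases, so without the strand of counting its reads are uncertain. Trpm1, a melanocyte channel gene that MITF drives, was at 77.2, 87.0, 34.1 and 53.9 CPM against 89.7 to 207 (median 138) and fell by 1.19 ± 0.09 (adjusted p = 1.14e-06). Enpp2, or autotaxin, which makes lysophosphatidic acid, fell by 1.38 ± 0.11. Abca12, a lipid transporter seen earlier to vary between repeats, fell by 1.44 ± 0.10.

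The pigment program was highest in repeat 1. Of 19 tested genes 11 fell (background 15.6%) and 3 rose (16.9%), with a median of -0.18. The median was -0.34 against repeat 1, with 14 lower (background 12.9%). It was -0.02 against repeat 3, with 4 lower (13.8%) and 5 higher (15%), near the shares of all genes. Repeat 3 was lower than repeat 1 in 12 of the 19 (background 2.78%) and higher in none, with a median of -0.32. Mitf, the master regulator of the lineage, fell by 0.18 ± 0.04, a value of -0.34 against repeat 1 and -0.02 against repeat 3. Gpnmb, a melanosome glycoprotein, rose by 0.38 ± 0.05 from a median of 6880 CPM, and Sox10 rose by 0.25 ± 0.06. Vim, an intermediate filament of mesenchymal cells, was at 1910, 2290, 2540 and 2640 CPM against 1470 to 1740 (median 1610). It rose by 0.56 ± 0.06 (adjusted p = 1.08e-05) without overlap.

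**Figure D4:**
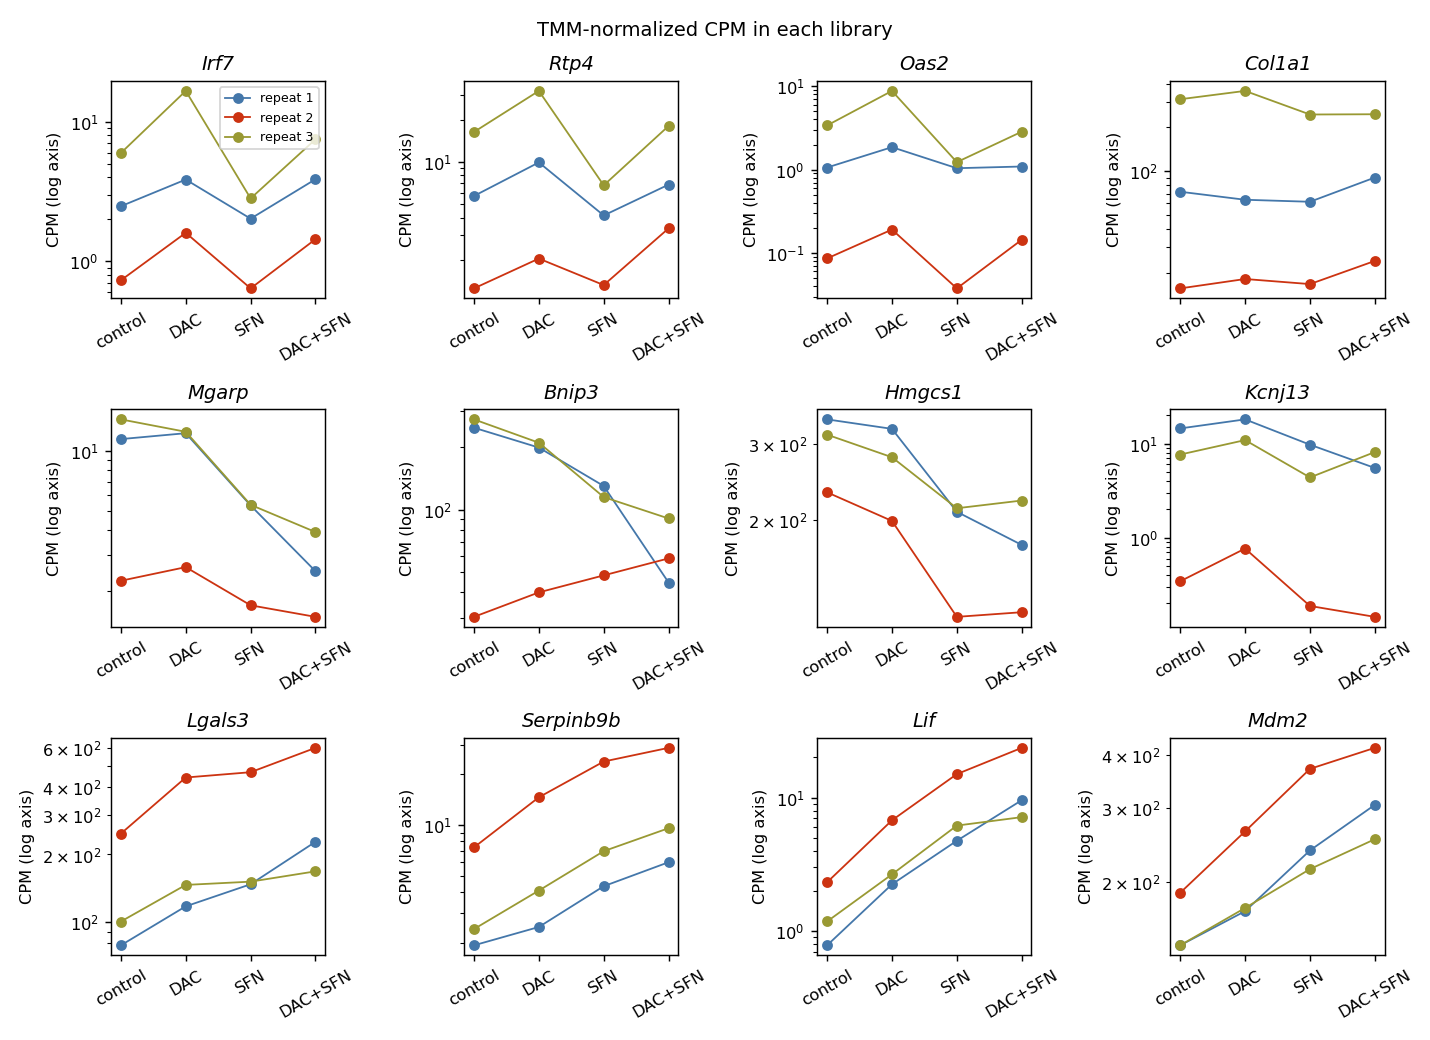
TMM-normalized CPM on a log axis (vertical) of 12 genes by treatment (horizontal), with 1 line per repeat. Repeat 2 (red) lies below both other repeats in every treatment for Irf7, Rtp4, Oas2, Col1a1, Mgarp, Hmgcs1 and Kcnj13 and above them for Lgals3, Serpinb9b, Lif and Mdm2, while Bnip3 crosses repeat 1 with DAC+SFN, at 58.3 and 44.6 CPM.

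Of the 44 genes called higher, 2 were members of a gene list described here. Lgals3, or galectin-3, a sugar-binding protein of adhesion and immune control, was at 248, 443, 468 and 602 CPM in repeat 2 and at 78.2 to 228 CPM (median 146) in the others. All 4 libraries were above all 8, and Lgals3 rose by 1.62 ± 0.08 (adjusted p = 1.38e-08). Serpinb9b, a serpin of the granzyme B inhibitor family, was at 7.36, 14.6, 23.8 and 28.7 CPM against 1.93 to 9.57 (median 4.21) and rose by 2.01 ± 0.09 (adjusted p = 5.1e-09). It has close paralogs, and reads that mapped to more than 1 of them were discarded, so its level is uncertain. Greb1, a gene that estrogen and MITF can raise, had the largest increase, 2.14 ± 0.17, at 1.42, 2.81, 5.31 and 7.33 CPM.

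Several genes with higher levels in the drug-treated libraries were also higher in repeat 2 within each treatment. Lif, a cytokine of the interleukin-6 family, was at 2.32, 6.76, 15.0 and 23.6 CPM in repeat 2, at 0.782, 2.24, 4.75 and 9.56 CPM in repeat 1 and at 1.18, 2.66, 6.17 and 7.14 CPM in repeat 3. It rose by 1.44 ± 0.12 (adjusted p = 1.26e-06). Cst6, a cystatin, Nppb, a natriuretic peptide, and Jam2, a junction protein, rose by 1.12 ± 0.09, 1.2 ± 0.10 and 1.51 ± 0.12. None of these 4 had an interaction with SFN or DAC that passed in edgeR.

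More targets of p53 rose than fell, and those that rose did so by under 2-fold. Of 21 tested, 13 rose (background 16.9%) and 1 fell, and 16 were higher in all 4 treatments (background 25%), with a median of 0.28. Mdm2, which degrades p53, was at 189, 264, 371 and 416 CPM in repeat 2, at 142, 171, 238 and 305 CPM in repeat 1 and at 142, 174, 215 and 253 CPM in repeat 3. It rose by 0.58 ± 0.05 (adjusted p = 1.97e-06). Cdkn1a, the cell cycle inhibitor p21, rose by 0.56 ± 0.08, Plk2 by 0.54 ± 0.06 and Ccng1 by 0.36 ± 0.05. Sesn1, another target, fell by 0.37 (log2).

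Among growth signals, 9 of 24 immediate early and ERK feedback genes rose (background 16.9%) and 2 fell (15.6%). Their median was -0.04 in control, with 14 of 24 below 0, and 0.33 with DAC+SFN, with 4 below 0. Etv4 and Etv5, ETS factors downstream of ERK, rose by 1.06 ± 0.20 and 0.75 ± 0.10, and Spry4, a feedback inhibitor, by 0.63 ± 0.10. Egr1, an immediate early factor, was at 5.68, 5.93, 9.45 and 8.38 CPM against 9.32 to 35.4 (median 18.8) and fell by 1.38 ± 0.28 (adjusted p = 0.0019). Of 16 YAP targets 9 rose (background 16.9%) and 2 fell (15.6%). Myof, a membrane repair protein, and Lats2, a kinase that restrains YAP, rose by 0.73 ± 0.07 and 0.61 ± 0.08.

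NRF2 targets, the antioxidant genes that SFN is known to raise, rose more often than they fell. Of 28, 11 rose (background 16.9%) and 4 fell (15.6%), so the share that fell was near that of all genes. Txnrd1 and Gclc, for thioredoxin and glutathione, rose by 0.45 ± 0.06 and 0.30 ± 0.04. Nqo1, the usual marker of this response, did not pass at -0.17 ± 0.10. It was at 8.78, 5.61, 33.5 and 33.5 CPM in repeat 2 and at 7.45 to 38.6 CPM in the others. The symbol Gsta4 stands beside the Entrez identifier of another gene in the deposited files, so which gene its counts belong to is uncertain. Gsta4, a glutathione transferase for lipid aldehydes, was at 11.2, 9, 13.9 and 14.4 CPM against 27.0 to 51.2 (median 38.0) and fell by 1.66 ± 0.13 (adjusted p = 1.14e-06). Aldh3a1, an aldehyde dehydrogenase, reached 1.13 and 1.5 CPM with SFN and DAC+SFN in repeat 1 and 2.49 and 2.71 CPM in repeat 3, but 0.113 and 0.383 CPM in repeat 2. In control and DAC it was at or under 0.112 CPM in every repeat, and its interaction with SFN, -3.35, did not pass (adjusted p = 0.339).

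ATF4 targets, the genes of amino acid stress, mostly went down: 16 of 30 fell (background 15.6%) and 2 rose (16.9%), with a median of -0.15. Pck2 and Psph, of gluconeogenesis and serine synthesis, fell by 0.55 ± 0.06 and 0.49 ± 0.07, and Trib3, a pseudokinase of the same response, by 0.40 ± 0.05. Ribosomal protein genes rose in 37 of 73 and fell in none, with a median of 0.12. They rose in 24 without the repeat 2 DAC+SFN library, in 24 with no scaling beyond library size, in 10 in the 6 libraries without DAC and in 0 in the 6 with DAC. Respiratory chain genes of the nucleus rose in 27 of 75 and fell in none, with a median of 0.07. They rose in 12 without the repeat 2 control library and in 10 without the repeat 2 DAC+SFN library. With no scaling 13 rose and 1 fell, and the 6 libraries without DAC and the 6 with DAC gave 5 and 2. Both lists hold short transcripts, with medians of 637 and 608 bases, and over all genes the median repeat 2 difference went from 0.03 in the shortest of 4 equal bins to -0.03 in the longest. Of 4 bins by GC, the lowest had -0.07 and the highest 0.07. The part of length and GC in these 2 lists was not tested. Of 34 mitosis genes 11 rose (background 16.9%) and 2 fell (15.6%), and of 32 replication genes 11 rose and none fell. The replication count depended on single libraries: 2 rose without the repeat 2 control or DAC library, 4 and 3 without control of repeat 1 or 3, 7 and 6 without DAC of repeat 1 or 3, 7 without SFN of repeat 1 and 6 without DAC+SFN of repeat 1. With no scaling beyond library size 2 replication genes rose and 1 fell. In the 6 libraries with SFN 1 rose and 4 fell, and in the 6 without SFN 20 rose. Mitosis genes gave 8 higher and 7 lower with SFN and 19 higher and 1 lower without it. Cdc20 and Anln, for anaphase and cytokinesis, rose by 0.43 ± 0.04 and 0.43 ± 0.05.

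How much of each program lay between repeats and how much between treatments was taken from the sums of squares of log2 CPM over the 12 libraries. For the median gene tested, 33.8% lay between treatments and 31.2% between repeats. For interferon-stimulated genes the medians were 22.5% and 70.3%, and for HIF targets 16.3% and 53.6%. Cholesterol genes had 60.5% between treatments and 33.2% between repeats, p53 targets 70.4% and 24.4%, and NRF2 targets 71.4% and 15.7%. Pigment genes had 22% between treatments and 69.8% between repeats, close to the interferon-stimulated genes. Less of the pigment part between repeats set repeat 2 against the others. That share had a median of 49.3% for pigment genes, 83.7% for interferon-stimulated genes and 98% for HIF targets. Deviations from the treatment mean correlated across genes at 0.531 to 0.727 over the 6 pairs of repeat 2 libraries, at 0.27 to 0.614 in repeat 1 and at 0.421 to 0.732 in repeat 3. These correlations are over genes, which are not independent, and each triple of deviations sums to 0.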

How the data were processed

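The authors used Trimmomatic (0.38) for trimming and TopHat2 (2.1.1) for alignment to mm10, counted uniquely mapped reads per gene with HTSeq and deposited raw counts per gene symbol, 1 library per file. The gene annotation and strand setting of counting are not given in the sources used here. Symbols identified the genes, since 397 Entrez identifiers stood beside several symbols. The study's filter (1 CPM or more in 3 or more libraries) left 11638 of 24421 genes, which were normalized by TMM and tested by glmQLFTest (edgeR 4.0.16, R 4.3.3; legacy fit, two-sided, Benjamini-Hochberg over all genes) with treatment as a block and repeat as 3 levels. Genes were called at an adjusted p under 0.05 and a fold change above 2. SE is the log2 fold change over the square root of F. Log2 CPM carried a prior count of 2. At 1 CPM a library held 15.9 to 27.3 counts. No 2 libraries of a treatment were copies (chi-square per gene at least 12.6). Named genes were the 10 largest changes in each direction called against both repeats and in all 4 treatments, the 5 most abundant of these, the 4 lowest p in each list with regulators added by role, the 5 lowest p of each interaction and 5 genes seen earlier to vary; further list members were named after their values were seen. The members and lists were chosen with earlier results of these data known. Some list members are not reported here by name. DESeq2 1.42.0 and other settings were tried. Fits were tested on simulated data. Promoters and positions are from RefSeq (GRCm38.p6), lengths from GENCODE. Figures used matplotlib 3.10.9.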

Additional observations from a re-analysis of the deposited data

Results flagged for a closer look

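For 61 genes the repeat 2 difference depended on SFN by the interaction test. The named members were Bnip3 (1.95), Adm (1.83), Loxl2 (1.81), Slc16a3 (1.49), Pdk1 (1.13), Ero1l (1.09), Pfkl (0.98), Slc7a11 (0.81), Hk2 (0.77), Egln1 (0.76), Vegfa (0.75), Slc2a1 (0.75), P4ha1 (0.73), Tpi1 (0.48) and Pmel (-0.44), in log2 units of the difference with SFN minus that without. All but Pmel were positive.

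The 4 treatment differences of 5 genes held 1 value far from the other 3. Sucnr1, a succinate receptor, differed by 0.84 in control and by 1.49 to 1.61 in the rest. Plb1 differed by 1.54 with DAC+SFN and by 1.11 to 1.15 in the rest, and Phldb3 by 1.71 in control and by 1.08 to 1.15 in the rest. Mest differed by 0.37 with DAC and by 0.11 to 0.15 in the rest. Mx1, an interferon-induced GTPase, differed by -2.41 with DAC and by -1.89 to -1.84 in the rest. Chance gives about 1 such value in 20 genes, and 134 genes and 27 lists were examined.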

How the results depend on the processing

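No paired analysis was possible because the repeat number is itself the comparison, and treatment was the block in its place. Repeat 2 against repeats 1 and 3 gave 197 to 203 genes under DESeq2's size factors, no scaling, DESeq2's test, the edgeR version 4 fit and a robust fit. With glmTreat, which tests against 2-fold, 39 genes passed, and 21, 83 and 14 for repeat 2 against 1, 2 against 3 and 3 against 1, 12 for repeat 2 apart from both other repeats, and 0 by SFN. Without the fold threshold the counts were 3776, 3034, 3350, 763, 1918 and 61. With at least 10 counts in every library they were 122, 121, 163 and 63, and 70 apart from both. Without the treatment block they were 109 (2 against 1), 44 (3 against 1) and 66 (both). The 6 libraries with SFN gave 72 for 3 against 1, those without DAC 59, and those with DAC 107, 44 and 62 for 2 against 1, 3 against 1 and both. For the interaction with SFN (10 genes over 2-fold), a robust fit gave 6, no filter 27, and leaving out 1 library 0 to 38. The interaction with DAC gave 3 with no filter and 0 to 2 with 1 library left out. The cause of these moves was not tested, apart from fewer genes or libraries entering. Leaving out 1 library kept the main count between 185 and 221, with 21 to 31 interferon-stimulated genes and 3 to 6 HIF targets called lower. In the libraries without SFN, 23 genes were higher and 209 lower, and in those with SFN 54 and 102.

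Direction turned for Slc7a11 without SFN libraries (-0.353), in the DAC libraries (-0.058) and with 1 library left out (-0.116 without SFN replicate 2, up to 0.245), for Ero1l (0.19) and P4ha1 (0.12) in the SFN libraries, for Nqo1 without DAC libraries (0.012), and for Adm in the SFN libraries (0.36), in the DAC libraries (0.096) and with 1 library left out (0.085 without control replicate 2, down to -0.821). Depth limits genes near 1 CPM, where repeat 2 held as few as 0 counts of H19.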

Other observations

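Among genes that keep daily time, Bhlhe41, a repressor of the clock, was at 175, 139, 122 and 112 CPM in repeat 2 and at 181 to 266 CPM (median 228) in the others. It fell by 0.72 ± 0.05 (adjusted p = 3.7e-07), with every repeat 2 library below the other 8. Nr1d1, a clock receptor that overlaps Thra, rose by 0.45 ± 0.10, and Tef, a clock-controlled factor, fell by 0.21 ± 0.04. Of 13 clock genes 3 fell and 2 rose, near the shares of all genes (15.6% and 16.9%). Heat shock genes rose in 6 of 17 and fell in none, with a median of 0.08. 

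Sox9, a factor of neural crest and cartilage, was at 9.16, 8.36, 6.02 and 7.18 CPM in repeat 2 and at 9.81 to 15.2 CPM (median 12.2) in the others, and it fell by 0.68 ± 0.09 (adjusted p = 4.95e-05). Thrsp, a lipogenic nuclear protein, was at 0.430, 1.08, 0.602 and 1.44 CPM against 1.78 to 3.08 (median 2.17) and fell by 1.39 ± 0.24 (adjusted p = 0.000643). By chromosome, the median difference ran from -0.06 on X to 0.05 on chromosome 7, so no chromosome stood far from the rest.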
